A study of Homo sapiens with 6 samples.

Results

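The genes described here are 10 transcripts reported elsewhere to depend on TDP-43 for their splicing or their level: POLDIP3, MADD, MEF2D, FNIP1, SORT1, BRD8, STAG2, TNIK, VPS4B and HDAC6. They were found by gene symbol among 27961 genes, and all 10 were present once in each library and had enough reads to be tested. The cells were SH-SY5Y, an established line from a human neuroblastoma that keeps features of sympathetic neurons, and their total RNA was sequenced after removal of ribosomal RNA. All cells were infected by lentivirus with a short hairpin RNA and selected with puromycin. The 6 libraries formed 3 groups of 2: cells with a hairpin against TARDBP, the gene of TDP-43; cells with control hairpin 2 (SHC016 in the labels); and cells with control hairpin 1 (SHC007). TARDBP was targeted with 1 hairpin sequence, so effects of lowering TDP-43 and any other effects of that hairpin cannot be told apart. Whether the libraries of one hairpin were separate cultures is not stated in the labels, so a p-value covers the spread between the 2 libraries of a group, and that spread may be technical.

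TDP-43 is an RNA-binding protein of the nucleus that prefers UG-rich RNA, most of it in introns. It represses some exons and helps include others, and its loss can also shift how much of a transcript accumulates. In human cells, skipping of the third exon of POLDIP3 is a widely used sign of lost TDP-43 activity. The deposited values were reads per gene, which give the total level of a transcript and do not show which exons it holds.

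Levels are given as CPM, read counts scaled to library size with TMM factors, and differences as log2 fold changes (log2FC) from edgeR's quasi-likelihood test, fitted on all 17163 genes and repeat families that passed a filter on low counts. A gene was called higher or lower at a Benjamini-Hochberg adjusted p below 0.05 over all of them. Library totals ran from 18605745 to 21698339 counts. The members had 303 to 2956 counts per library, for which counting error alone is 5.74% and 1.84%. TARDBP itself stood at 18.9 and 24.0 CPM with its hairpin, against 92.7 and 81.5 CPM with control hairpin 2 and 80.9 and 72.4 CPM with control hairpin 1. Of 12 genes that mark SH-SY5Y, 11 were detected well enough to test, while TH, tyrosine hydroxylase, was at most 0.147 CPM in any library. CPM values are not divided by transcript length, so levels are compared between hairpins and not between genes.

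Against the mean of both controls, 6 of the 10 members were called: MADD, MEF2D, POLDIP3 and SORT1 were lower with the TARDBP hairpin, and FNIP1 and VPS4B were higher. In that comparison 24.3% of all tested genes and families were called lower and 23.9% higher, 48.2% in all, so 6 of 10 is not far from the background. The median log2FC of the members was -0.11, beside 0.04 over everything tested. The control hairpins differed from each other in 8 of the 10 members, with 2 higher and 6 lower in control hairpin 2, beside a background of 43.2% called, 22.8% higher and 20.4% lower. Against control hairpin 2 alone, 7 members were called, 2 higher and 5 lower with the TARDBP hairpin (background 50.2%, with 24.0% higher and 26.2% lower), and against control hairpin 1 alone 8 were, 3 higher and 5 lower (background 42.9%, with 21.1% higher and 21.8% lower). Each member is therefore given below against each control. The comparisons with the TARDBP hairpin share its libraries, and they were not treated as independent.

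**Figure D1:**
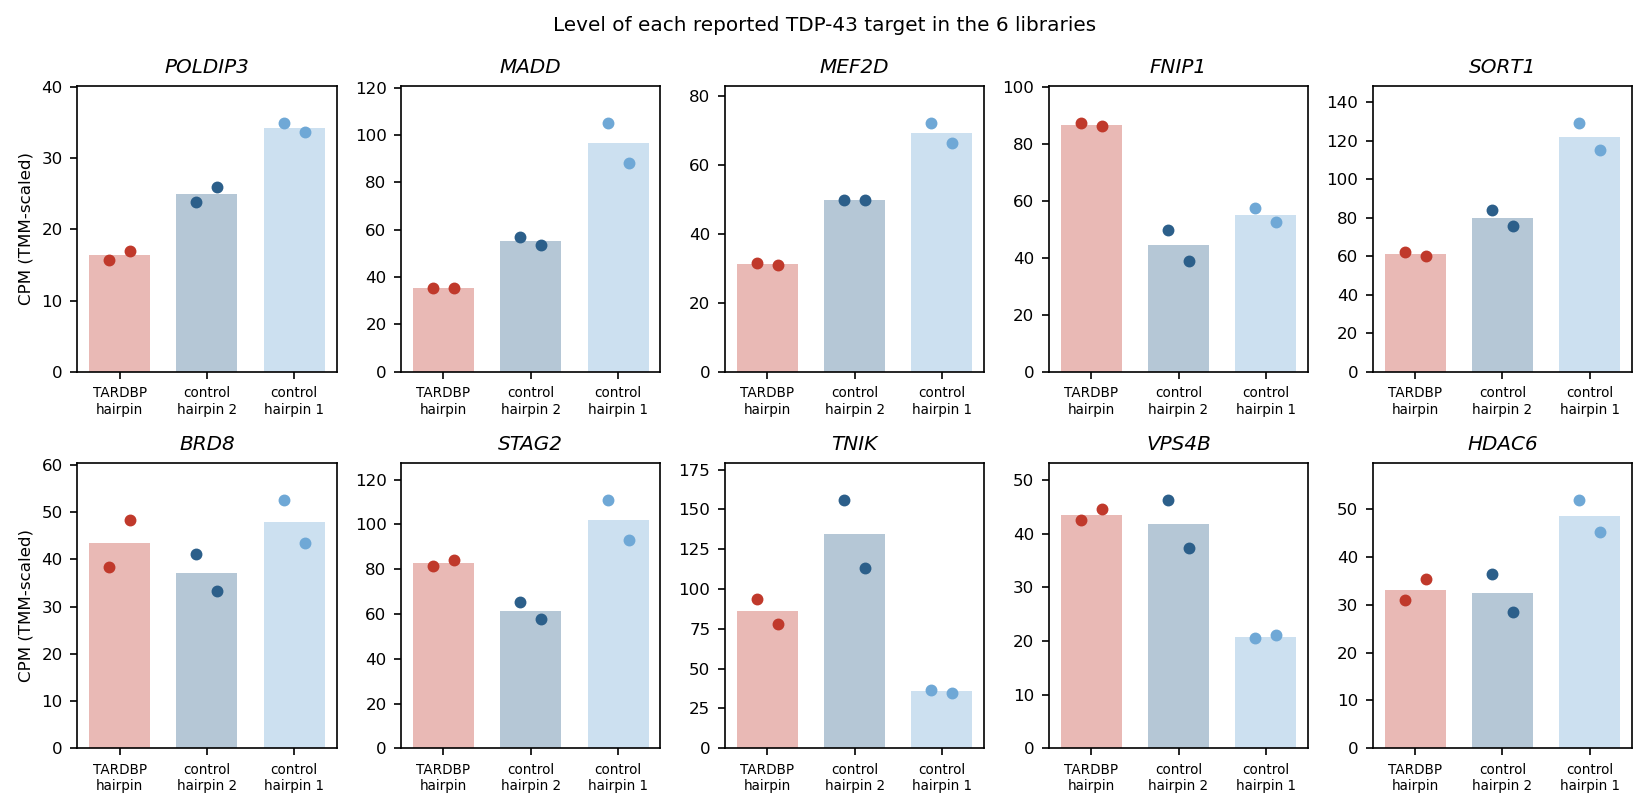
CPM of each member by library (points) with the mean of the 2 libraries (bars), with the TARDBP hairpin on the left of each panel, then control hairpin 2, then control hairpin 1. POLDIP3, MADD, MEF2D and SORT1 step up from left to right, FNIP1 is high with the TARDBP hairpin alone, and TNIK and VPS4B are low with control hairpin 1.

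In 4 members, both libraries of the TARDBP hairpin lay below all 4 control libraries. POLDIP3, also called SKAR, is a target of S6 kinase that sits on spliced messenger RNA and links growth signalling to its translation. It had 15.7 and 17.0 CPM with the TARDBP hairpin, against 23.8 and 26.0 CPM with control hairpin 2 and 34.9 and 33.7 CPM with control hairpin 1. It fell to 65.5% of the level in control hairpin 2 (log2FC -0.61, SE 0.112, adjusted p = 0.00257, edgeR) and to 47.6% of that in control hairpin 1 (log2FC -1.07, SE 0.111, adjusted p = 1.62e-04, edgeR). The control hairpins differed too, with control hairpin 2 at 72.8% of control hairpin 1 (log2FC -0.46, edgeR adjusted p = 0.0100), a call that was lost without either first control library (adjusted p = 0.0635 without control hairpin 2 replicate 1 and 0.0606 without control hairpin 1 replicate 1).

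MADD activates the vesicle GTPase RAB3 and is spliced into several forms, some of which bear on cell survival. Its levels were 35.5 and 35.3 CPM with the TARDBP hairpin, against 57.1 and 53.7 CPM with control hairpin 2 and 105 and 88.1 CPM with control hairpin 1. No library of one hairpin overlapped those of another. The fall was by 0.65 on the log2 scale against control hairpin 2 (SE 0.110, adjusted p = 0.00176, edgeR) and by 1.45 against control hairpin 1 (SE 0.110, adjusted p = 3.62e-05, edgeR). Between the controls it was lower in control hairpin 2, with a log2FC of -0.81 (SE 0.108, adjusted p = 7.25e-04, edgeR).

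MEF2D is a transcription factor of muscle and of neuronal survival. It stood at 31.6 and 31.1 CPM with the TARDBP hairpin, against 49.7 and 49.9 CPM with control hairpin 2 and 72.1 and 66.4 CPM with control hairpin 1. The fit gave a log2FC of -0.67 against control hairpin 2 (95% interval -0.88 to -0.46) and of -1.14 against control hairpin 1 (-1.36 to -0.93), both called (edgeR adjusted p = 6.46e-04 and 4.98e-05). The difference between the controls was again in the same direction, at -0.48 (edgeR adjusted p = 0.00392).

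SORT1 encodes sortilin, a sorting receptor that takes up progranulin and binds the precursors of neurotrophins. In cells with the TARDBP hairpin it had 62.1 and 60.2 CPM, against 83.9 and 75.5 CPM with control hairpin 2 and 129 and 115 CPM with control hairpin 1. It fell to 50.0% of control hairpin 1 (SE 0.0993 on the log2 scale, adjusted p = 1.29e-04, edgeR). Against control hairpin 2 it fell by 0.38 (SE 0.0992, adjusted p = 0.0127, edgeR), and this call was lost without TARDBP hairpin replicate 2 (log2FC -0.36, adjusted p = 0.0693) or without control hairpin 2 replicate 1 (-0.31, adjusted p = 0.0832). Between the controls the log2FC was -0.62 (edgeR adjusted p = 0.00163).

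POLDIP3, MADD, MEF2D and SORT1 therefore shared 1 order, with the TARDBP hairpin below control hairpin 2 and control hairpin 2 below control hairpin 1, each step called. This order, with all 3 tests called, was found in 2.41% of all genes and families tested. The order was taken from the values of these members, which were chosen with earlier results of these data known. The share is therefore a description and not a test. Both libraries of the TARDBP hairpin were below all 4 control libraries in 22.8% of those tested.

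In FNIP1 the step between the controls was not called. The gene encodes a partner of folliculin that binds the energy sensor AMPK. It had 87.3 and 86.2 CPM with the TARDBP hairpin, against 49.7 and 39.1 CPM with control hairpin 2 and 57.5 and 52.7 CPM with control hairpin 1. It was the sole member above all 4 control libraries, a position that 23.3% of all genes and families held. FNIP1 rose 1.96-fold against control hairpin 2 (log2FC 0.97, SE 0.123, adjusted p = 4.11e-04, edgeR) and 1.58-fold against control hairpin 1 (log2FC 0.66, SE 0.122, adjusted p = 0.00304, edgeR). Between the controls the log2FC was -0.31 and not called (95% interval -0.59 to -0.03, edgeR adjusted p = 0.0718), although without control hairpin 2 replicate 1 it was called (-0.50, adjusted p = 0.0212) and without control hairpin 2 replicate 2 it was -0.14 (adjusted p = 0.453). FNIP1 is 1 member of 10 higher against each control, beside 10.6% of all tested, and 4 of 10 were lower against each, beside 14.0%.

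**Figure D2:**
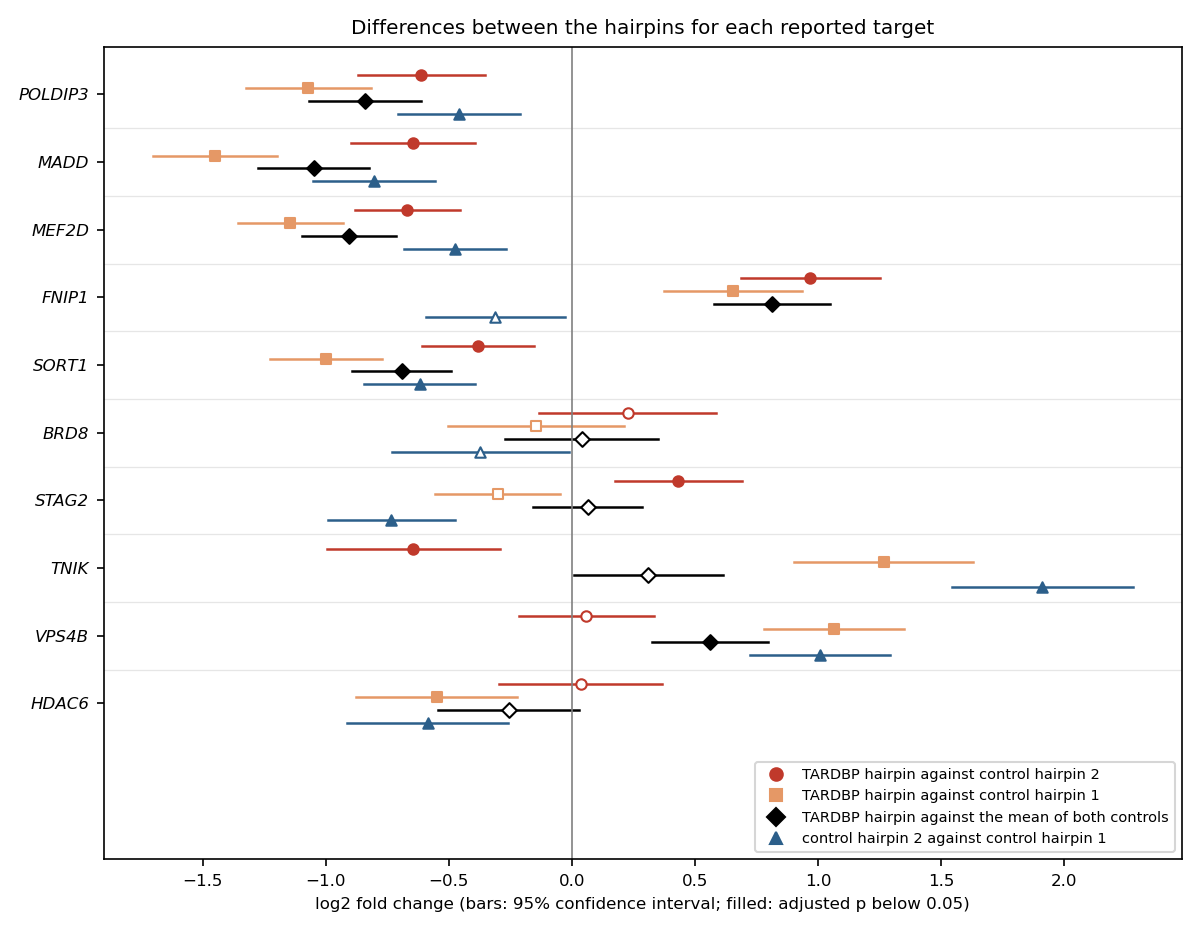
The log2 fold change of each member in 4 comparisons, with 95% confidence intervals from the edgeR fit; filled symbols are called at an adjusted p below 0.05. TNIK lies on opposite sides of 0 against the 2 controls (-0.65 and 1.27), and VPS4B and HDAC6 sit near 0 against control hairpin 2 (0.06 and 0.04).

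TNIK, VPS4B, HDAC6 and STAG2 gave different calls against the 2 controls, and BRD8 gave none. The contrast between the controls is also the test of whether the 2 comparisons differ, and it was called for these 4 members. TNIK is a kinase of the STE20 family that acts in Wnt signalling and at synapses. It stood at 93.7 and 78.1 CPM with the TARDBP hairpin, against 156 and 113 CPM with control hairpin 2 and 36.7 and 34.8 CPM with control hairpin 1. The TARDBP hairpin thus lay between the controls without overlap. It was higher than control hairpin 1 by 1.27 (SE 0.159, adjusted p = 4.16e-04, edgeR) and lower than control hairpin 2 by a log2FC of -0.65 (SE 0.154, adjusted p = 0.00867, edgeR). The second call was lost without TARDBP hairpin replicate 2 (-0.52, adjusted p = 0.0611) or without control hairpin 2 replicate 1 (-0.40, adjusted p = 0.0542). Control hairpin 2 exceeded control hairpin 1 by 3.76-fold (log2FC 1.91, SE 0.161, adjusted p = 9.13e-05, edgeR), and 4.07% of all genes and families had a larger difference between the controls. Against the mean of both controls TNIK was not called (log2FC 0.31, edgeR adjusted p = 0.0846), and without control hairpin 2 replicate 1 it was (0.43, adjusted p = 0.0164). Without TARDBP hairpin replicate 1 or control hairpin 2 replicate 2 the value was 0.17, and with the control libraries pooled as 1 group it was 0.015. Calls in opposite directions against the 2 controls occurred in 2.96% of all genes and families tested, and the order of TNIK, with all 3 differences called, in 2.06%. Both patterns were taken from TNIK itself, so these shares are descriptions.

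VPS4B is an ATPase that takes apart the ESCRT-III filaments of endosomes, and others have reported that it rises when TDP-43 is lost. Its levels were 42.6 and 44.5 CPM with the TARDBP hairpin, against 46.3 and 37.4 CPM with control hairpin 2 and 20.5 and 21.1 CPM with control hairpin 1. The TARDBP hairpin libraries lay between the 2 libraries of control hairpin 2 and above both of control hairpin 1. VPS4B was 2.09-fold higher than in control hairpin 1 (log2FC 1.07, SE 0.124, adjusted p = 2.83e-04, edgeR). Against control hairpin 2 the log2FC was 0.06 (95% interval -0.22 to 0.33, edgeR adjusted p = 0.710). Control hairpin 2 was 2.01-fold above control hairpin 1 (edgeR adjusted p = 5.01e-04). The call against the mean of both controls (log2FC 0.56, adjusted p = 0.00256, edgeR) therefore rests on control hairpin 1.

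HDAC6 is a deacetylase of the cytoplasm that acts on tubulin and helps clear protein aggregates, and it has been reported to drop when TDP-43 is lost. It had 30.9 and 35.3 CPM with the TARDBP hairpin, against 36.3 and 28.4 CPM with control hairpin 2 and 51.9 and 45.1 CPM with control hairpin 1. The TARDBP hairpin libraries lay within the range of control hairpin 2 and below both libraries of control hairpin 1. HDAC6 was lower than in control hairpin 1 by a log2FC of -0.55 (SE 0.143, adjusted p = 0.0146, edgeR), a call lost without TARDBP hairpin replicate 1 (-0.46, adjusted p = 0.0823), and likewise when control hairpin 1 replicate 1 was left out (-0.45, adjusted p = 0.0901). Against control hairpin 2 its log2FC was 0.04 (95% interval -0.29 to 0.37, edgeR adjusted p = 0.855), an interval that holds both a small fall and a small rise. The controls differed by -0.59 (edgeR adjusted p = 0.0115), and that call was lost without 1 library of either group (adjusted p = 0.0887 when control hairpin 2 replicate 2 was left out, 0.0822 for control hairpin 1 replicate 1). Against the mean of both controls HDAC6 was not called (log2FC -0.26, edgeR adjusted p = 0.123), and without control hairpin 2 replicate 2 it was (-0.38, adjusted p = 0.0354).

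STAG2 is a subunit of cohesin, the ring that holds sister chromatids together and folds chromatin. Its levels were 81.5 and 83.9 CPM with the TARDBP hairpin, against 65.2 and 57.6 CPM with control hairpin 2 and 111 and 92.9 CPM with control hairpin 1. The TARDBP hairpin lay between the controls. STAG2 was higher than in control hairpin 2 (log2FC 0.43, SE 0.113, adjusted p = 0.0131, edgeR), but not without TARDBP hairpin replicate 2 (0.41, adjusted p = 0.0614), nor when control hairpin 2 replicate 2 was left out (0.31, adjusted p = 0.135). Against control hairpin 1 it was not called (log2FC -0.30, 95% interval -0.56 to -0.05, edgeR adjusted p = 0.0577), and without control hairpin 1 replicate 2 it was (-0.44, adjusted p = 0.0280), while without control hairpin 1 replicate 1 the value was -0.17 (adjusted p = 0.317). The controls differed by -0.73 (SE 0.113, adjusted p = 0.00140, edgeR).

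BRD8 is a bromodomain subunit of the NuA4/TIP60 histone acetyltransferase complex. With the TARDBP hairpin it had 38.4 and 48.4 CPM, against 41.1 and 33.2 CPM with control hairpin 2 and 52.6 and 43.4 CPM with control hairpin 1. The libraries of the TARDBP hairpin overlapped those of both controls, and no comparison was called. Its log2FC was 0.23 against control hairpin 2 (95% interval -0.13 to 0.59) and -0.15 against control hairpin 1 (-0.50 to 0.21), so changes up to these bounds were not excluded. With 1 library left out the value against control hairpin 2 ranged from 0.04 (without control hairpin 2 replicate 2) to 0.38 (without control hairpin 2 replicate 1). BRD8 overlaps KIF20A, a kinesin gene of cell division, on the other strand in GENCODE release 29. KIF20A was at 0.207 and 0.156 CPM with the TARDBP hairpin, against 20.5 and 23.8 CPM with control hairpin 2 and 1.73 and 6.56 CPM with control hairpin 1. The libraries were strand-specific, but no source used here gives the strand setting of the counting, so whether reads of KIF20A entered BRD8 was not tested. STAG2 overlaps 5 annotated genes or pseudogenes on the other strand and 4 on its own in that annotation, TENM1 and SH2D1A among them, and their part in its count was not tested either.

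Exon choice, for which several of these transcripts were reported, lies below what these counts resolve. In GENCODE release 29 (GRCh38), 7 of the members have at least 1 coding exon that another coding transcript of the gene skips between the same neighbouring exons, 18 such exons in all, of 21 to 219 bases, with the third exon of POLDIP3 counted in 2 lengths, 87 and 138 bases. SORT1, VPS4B and HDAC6 have none in the basic transcript set, which holds 2 coding transcripts of SORT1, 2 of VPS4B and 10 of HDAC6. Exons outside that set were not examined. Each of the 18 makes up 0.352 to 6.85% of the transcript that holds it. If reads were spread evenly, the missing bases alone would lower a gene's count by no more than that. Whether exon choice changed how much of a transcript accumulated was not tested, so this share sets no limit on the effect of splicing on level. The exons below show how small the spliced unit is beside the whole transcript. They are the third exon of POLDIP3 (chr22:42601970-42602056, minus strand, 87 of 3441 bases of POLDIP3-201), exon 6 of FNIP1-201 (chr5:131710578-131710661, minus strand, 84 of 6366 bases), the sole skippable exon of STAG2 (chrX:124090854-124090964, plus strand, 111 of 5218 bases of STAG2-201) and the shortest of all, 1 of 3 in MEF2D (chr1:156476494-156476514, minus strand, 21 of 5965 bases of MEF2D-201). All 4 have lengths that are multiples of 3, as do 15 of the 18, which leaves the reading frame intact when they are skipped.
POLDIP3 exon 3: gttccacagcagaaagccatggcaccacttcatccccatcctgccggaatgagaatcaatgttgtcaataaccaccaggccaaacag
FNIP1 exon 6: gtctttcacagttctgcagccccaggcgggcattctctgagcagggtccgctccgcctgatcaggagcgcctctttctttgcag
STAG2 exon 32: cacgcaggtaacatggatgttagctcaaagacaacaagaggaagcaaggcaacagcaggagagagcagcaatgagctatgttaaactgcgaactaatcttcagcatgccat
MEF2D exon 8: actgaggaccatttagatctg
Whether these exons were used differently was not measured.

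The repeat that TDP-43 prefers was looked for in the longest coding transcript of each member in the same annotation, as 5 TG units in a row on the transcript strand. It was present in 3 of the 10, MEF2D and SORT1 among them, beside 9.88% of the 6576 coding genes whose longest transcript has a length in the members' range, 3324 to 7028 bases, and 7.11% of all coding genes. Lengths were not matched within that range, so 9.88% is a rough background, and the difference was not tested. SORT1-201 and MEF2D-201 hold it in the 3′ UTR, MEF2D at 2 places. Capitals mark the TG run within at most 30 bases of transcript. The SORT1 window is at chr1:109313208-109313237 and the MEF2D windows are at chr1:156465676-156465704 and chr1:156465628-156465657 (GRCh38, minus strand).
SORT1: agctgtgcttTGTGTGTGTGccagtagact
MEF2D, first: tatttaTGTGTGTGTGTGTGTGTatgtct
MEF2D, second: ttgtatttaTGTGTGTGTGTGgttgcacgg
No such run was found in the transcripts of the other 7. Introns, where most TDP-43 binding occurs, were not searched, and a match is a stretch of letters, not a measured binding site.

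The partners of these genes were read in 10 lists, together with a list of 8 further transcripts reported as level targets of TDP-43, and 121 genes of these 11 lists could be tested. Against the mean of both controls 45 were lower and 21 higher with the TARDBP hairpin, that is 37.2% and 17.4%, beside 24.3% and 23.9% of everything tested, and their median log2FC was -0.17 beside 0.04. Between the controls 39 were higher and 29 lower in control hairpin 2, that is 32.2% and 24%, beside 22.8% and 20.4% of everything tested. In all, 56.2% of the partners were called between the controls, beside 43.2% of everything tested. With the TARDBP hairpin against the mean of both controls 54.5% of the partners were called, beside 48.2%. Changes of partners below are against that mean. Counts of genes that fell or rose in a list are against that mean alone, and may differ against each control. Genes named as rising or falling were also called in the same direction against each control unless a control is named. Among the partners of POLDIP3, 4 of 11 fell and 1 rose. CASC3, a core protein of the exon junction complex, fell by 0.94 (SE 0.0930), RPS6KB2 and RPS6KB1, the S6 kinases, fell by 0.59 and 0.49, and POLDIP2 fell by 0.57. RBM8A, another core protein of that complex, rose by 0.28, but was not called against control hairpin 2 (log2FC 0.03). Adjusted p-values of these 5 ran up to 0.0137 (edgeR).

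MADD works on RAB3, and 5 of 12 genes of this vesicle release system fell while 1 rose. RPH3A, the RAB3 effector rabphilin, fell by 1.87 (SE 0.114) and RAB3C by 1.83 (SE 0.165). RAB27B fell by 0.91, although it was not called against control hairpin 1 (log2FC -0.67, edgeR adjusted p = 0.0689), and RAB3GAP2, a regulator of RAB18 and RAB3, rose by 0.52. RPH3A fell by 1.89 against control hairpin 2 and by 1.84 against control hairpin 1, and it was not called between the controls (log2FC 0.04, edgeR adjusted p = 0.804).

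Within the MEF2 family MEF2C and MEF2B were higher and MEF2A was not called (log2FC -0.07). MEF2C, a factor of neurons and muscle, had 28.0 and 27.6 CPM with the TARDBP hairpin, against 18.0 and 16.8 CPM with control hairpin 2 and 7.95 and 9.50 CPM with control hairpin 1. No library of one hairpin overlapped those of another, and the order was the reverse of that of MEF2D. MEF2C rose by 0.68 against control hairpin 2 and by 1.67 against control hairpin 1 (edgeR adjusted p = 0.00262 and 4.30e-05). Among the class IIa deacetylases, which repress MEF2 factors, HDAC7 fell by 0.41, a change called against control hairpin 2 (log2FC -0.71) and not against control hairpin 1 (-0.10). HDAC4, HDAC5 and HDAC9 were not called against the mean, and HDAC4 was higher than in control hairpin 2 and lower than in control hairpin 1 (log2FC 0.41 and -0.37, edgeR adjusted p = 0.0121 and 0.0220).

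Of 12 genes of the folliculin and AMPK system 6 fell and 4 rose. FNIP2, the paralog of FNIP1, fell by 0.65 (SE 0.120, edgeR adjusted p = 0.00260), the opposite direction to FNIP1. It had 38.1 and 33.2 CPM with the TARDBP hairpin, against 58.3 and 55.9 CPM with control hairpin 2 and 61.6 and 47.8 CPM with control hairpin 1. Catalytic subunits of AMPK rose, PRKAA2 by 0.64 and PRKAA1 by 0.40. The regulatory subunit genes did not share a direction. PRKAG2 fell by 0.64, and PRKAG1 averaged 41.5 CPM with the TARDBP hairpin, against 26.7 CPM with control hairpin 2 and 37.2 CPM with control hairpin 1. PRKAA1 was not called against control hairpin 2 (log2FC 0.28), nor PRKAG2 against control hairpin 1 (-0.23). FLCN, the folliculin gene, averaged 22.4 CPM with the TARDBP hairpin, against 23.8 CPM with control hairpin 2 and 38.3 CPM with control hairpin 1. Its TARDBP hairpin libraries overlapped those of control hairpin 2 and lay below those of control hairpin 1. Folliculin acts on the Rag GTPases of RRAGC and RRAGD. RRAGC fell against the mean (log2FC -0.33, edgeR adjusted p = 0.0435) and against control hairpin 1 (-0.76), but was not called against control hairpin 2 (0.10). RRAGD was not called against the mean, and it was lower than in control hairpin 2 (-0.45) and higher than in control hairpin 1 (0.45). Of their partner GTPases, RRAGA fell by 0.60, and RRAGB rose by 0.59 but was not called against control hairpin 1 (log2FC 0.05).

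Sortilin relatives and ligands gave 4 falls and 1 rise among 9. BDNF, a neurotrophin whose precursor binds sortilin, had 0.621 and 1.09 CPM with the TARDBP hairpin, against 2.84 and 2.69 CPM with control hairpin 2 and 9.33 and 11.9 CPM with control hairpin 1. NGFR, the p75 neurotrophin receptor that pairs with sortilin, had 4.29 and 6.02 CPM with the TARDBP hairpin, against 7.16 and 6.64 CPM with control hairpin 2 and 22.5 and 20.2 CPM with control hairpin 1. BDNF fell against each control (edgeR adjusted p = 0.00250 and 3.25e-05), and NGFR fell against control hairpin 1 but was not called against control hairpin 2 (log2FC -0.42, edgeR adjusted p = 0.0964). PSAP fell by 0.39 and SORCS1 by 0.31 and SORCS3 rose by 1.38, but none of the 3 was called against control hairpin 2 (log2FC -0.24, -0.20 and 0.46). Neither SORL1 (log2FC -0.24) nor the sortilin ligand gene GRN (-0.23) was called against the mean.

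**Figure D3:**
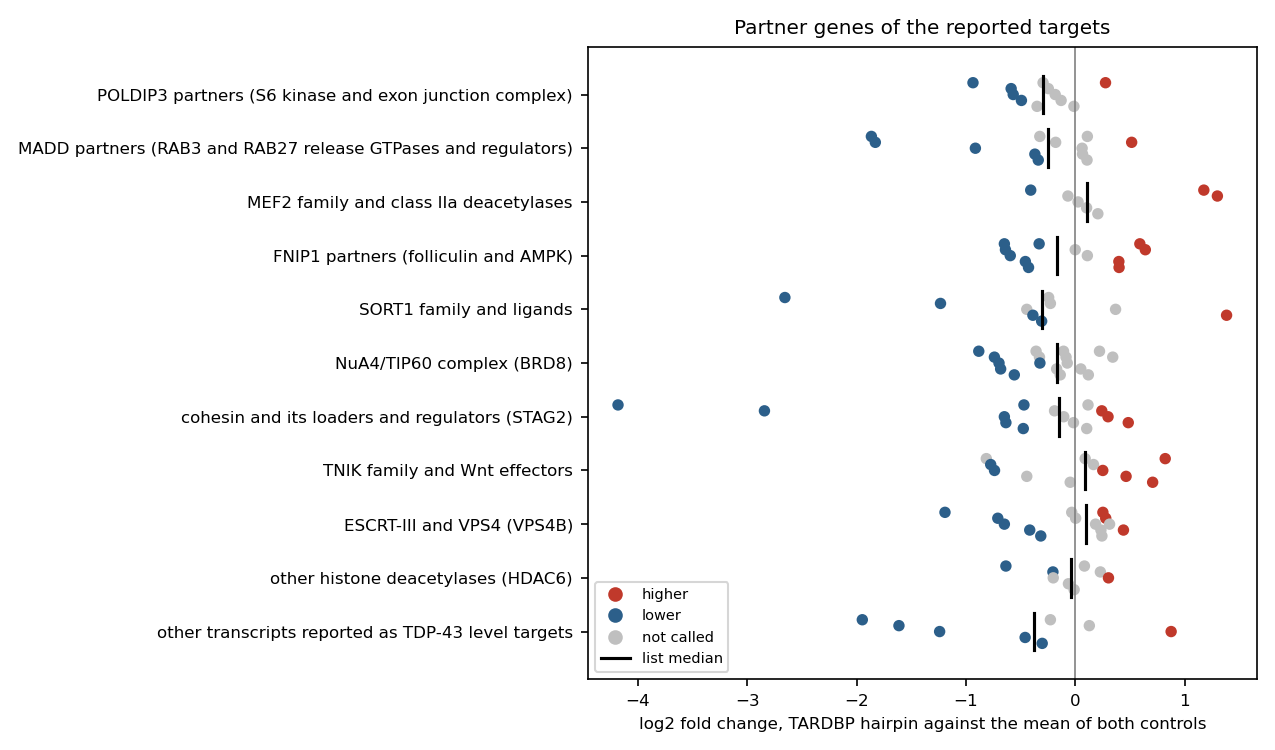
The log2 fold change of each tested gene of the 10 partner lists and of the list of further reported level targets, with the TARDBP hairpin against the mean of both controls, by list; red and blue points are called higher and lower at an adjusted p below 0.05, grey points are not called, and black bars are list medians. The lowest points are the cohesin regulators CDCA5 (-4.18) and ESCO2 (-2.84).

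In the NuA4/TIP60 complex, of which BRD8 is a subunit, 6 of 17 fell and none rose, including MORF4L2 (log2FC -0.68), MORF4L1 (-0.74), ING3 (-0.88) and DMAP1 (-0.70). Among cohesin genes 6 of 14 fell and 3 rose. The ring subunit SMC3 rose by 0.48 (edgeR adjusted p = 0.00219), PDS5B and ESCO1 rose by 0.24 and 0.30 but were not called against control hairpin 1 (log2FC 0.18 and 0.11), and STAG1, the paralog of STAG2, was not called (log2FC 0.10, 95% interval -0.08 to 0.29). The largest falls were in CDCA5 and ESCO2, which establish cohesion during DNA replication. CDCA5 had 1.09 and 0.519 CPM with the TARDBP hairpin, against 24.8 and 29.5 CPM with control hairpin 2 and 7.60 and 8.28 CPM with control hairpin 1. ESCO2 averaged 0.933, 13.4 and 3.38 CPM in the same order of groups. Both had the group order of the summed proliferation genes given below. The cohesin loader gene MAU2 fell by 0.65 and CTCF by 0.48.

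Of TNIK relatives and Wnt effectors, 4 of 11 rose and 2 fell. MINK1, a near relative of TNIK, rose by 0.25 and MAP4K4, the other, fell by 0.74. RAP2A, the GTPase that TNIK binds, fell by 0.77, the ubiquitin ligase gene NEDD4 rose by 0.82, and TCF7L2 and DVL2 of the Wnt pathway rose by 0.71 and 0.46. MINK1 was not called against control hairpin 1 (log2FC 0.18), nor TCF7L2 against control hairpin 2 (0.35). In the ESCRT-III system 5 of 14 fell and 3 rose. CHMP6 fell by 1.19 and CHMP1A by 0.65, SPAST, a microtubule-severing ATPase related to VPS4B, fell by 0.71, and CHMP3 rose by 0.44 but was not called against control hairpin 1 (log2FC 0.12). VPS4A, the paralog of VPS4B, lay between the controls: it had 39.3 and 35.9 CPM with the TARDBP hairpin, against 52.4 and 53.9 CPM with control hairpin 2 and 27.3 and 28.4 CPM with control hairpin 1. It was called lower than in control hairpin 2 (log2FC -0.50, edgeR adjusted p = 0.00340) and higher than in control hairpin 1 (0.43, edgeR adjusted p = 0.00830). Other deacetylases beside HDAC6 gave 2 falls, HDAC8 (log2FC -0.64) and HDAC2 (-0.21), and 1 rise, SIRT1 (0.30), among 8, with HDAC1 at -0.01 and not called. Neither HDAC2 (log2FC -0.15) nor SIRT1 (0.25) was called against control hairpin 1. Of 8 further transcripts reported as level targets of TDP-43, 5 fell and BCL2 rose (log2FC 0.88). In this list 5 were lower against control hairpin 2 alone and 4 against control hairpin 1 alone. CDK6 averaged 109 CPM with the TARDBP hairpin, against 456 CPM with control hairpin 2 and 389 CPM with control hairpin 1. SREBF2 averaged 18.1, 59.8 and 51.5 CPM in the same order, and RANBP1 25.7, 80.6 and 45.8 CPM.

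Other properties of the cells moved with the hairpins. The summed level of 10 proliferation genes was 41.5 and 38.0 CPM with the TARDBP hairpin, against 694 and 751 CPM with control hairpin 2 and 136 and 223 CPM with control hairpin 1, and all 10 fell against the mean of both controls, 8 of them against control hairpin 1. The summed level of the 12 SH-SY5Y marker genes was 1310 and 1160 CPM with the TARDBP hairpin. It was 1930 and 2080 CPM with control hairpin 2 and 2760 and 2970 CPM with control hairpin 1. This sum had the order of POLDIP3, MADD, MEF2D and SORT1. Of the 11 markers tested, 8 were lower against the mean, 1 was higher and 2 were not called. STMN2 averaged 143 CPM with the TARDBP hairpin, against 418 CPM with control hairpin 2 and 732 CPM with control hairpin 1. GATA3 averaged 222, 153 and 199 CPM in the same order of groups, so not every marker had the order of the sum. For 8 fibroblast-type genes the summed level was 214 and 264 CPM with the TARDBP hairpin, against 1800 and 1910 CPM with control hairpin 2 and 1440 and 1440 CPM with control hairpin 1. All 8 had counts. Of these 8 genes 6 were lower and 2 higher against the mean. COL3A1 made up most of the sum in the controls, with 52.0 and 63.7 CPM with the TARDBP hairpin, against 1580 and 1650 CPM with control hairpin 2 and 1320 and 1310 CPM with control hairpin 1. PDGFRA was higher, with 112 and 142 CPM with the TARDBP hairpin, against 43.2 and 46.6 CPM with control hairpin 2 and 27.8 and 26.2 CPM with control hairpin 1, and so was DCN (log2FC 2.43). The immune markers summed to between 5.92 and 19.5 CPM and the epithelial, glial and endothelial markers to 7.38 CPM or less each, with CD3E, KRT5 and CDH5 at 0 counts in all 6 libraries. The part of these differences in the levels of the members and their partners was not tested. In bulk RNA fewer cells of a type and less RNA per cell cannot be told apart.

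Many other genes followed the members over the 6 libraries. For each member the gene with the most similar log2 CPM among 10341 genes was found by Pearson's r, given as a description since the libraries form 3 groups. It was KLHL8 for POLDIP3 (r = 0.999), HIPK1 for MADD (0.9993), CERCAM for MEF2D (0.9989), MFAP3 for SORT1 (0.9986), VPS13C for FNIP1 (0.998), SH3D19 for TNIK (0.9977), ATP2B1 for VPS4B (0.9998), MTMR3 for HDAC6 (0.9971), TP53BP1 for STAG2 (0.9996) and GOLGA8B for BRD8 (0.9956). A correlation above 0.98 was held by 14 of the 10341 genes for BRD8 and by 223 for MEF2D, with the other members between. The gene named was therefore not the only close match of any member. ATP2B1, a calcium pump gene, had 124 and 134 CPM with the TARDBP hairpin, against 140 and 104 CPM with control hairpin 2 and 45.1 and 45.7 CPM with control hairpin 1, the low value in control hairpin 1 that VPS4B also had.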

How the data were processed

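Per the labels' protocols, strand-specific libraries (NEBNext Ultra II Directional) were prepared from Trizol-extracted RNA after ribosomal depletion (Ribo-Zero Gold). The deposited values were raw counts by the authors, whole numbers, 1 line per gene symbol or repeat subfamily, per the file headers. bcl2fastq and STAR 2.5.2b with hg19 were used, per the submitters' processing notes; for the counting tool, annotation and strand setting: not given in the sources used here. In R 4.3.3 with edgeR 4.0.16, 17163 of 28953 rows passed filterByExpr (minimum count 10, minimum total 15), and the TMM-scaled counts of all 6 libraries entered a single quasi-likelihood fit with a term per hairpin group (3 residual and 5.41 prior degrees of freedom). Standard errors were |log2FC| over the square root of F. The same kind of fit was tried on simulated counts in which few genes changed and the controls did not differ. That setting is unlike these data, so it does not test the calls made here. Libraries of a group differed by more than sampling noise (chi-square over its degrees of freedom 18.0 to 20.8). The members and lists were chosen with earlier results of these data known. Named partners were, per list, all called genes where 5 or fewer, otherwise the 4 with the lowest p and 2 of the other direction, and the nearest paralogs, named from among these in the text; further genes were named after their values were seen. Exons and TG runs were read from GENCODE release 29 (GRCh38), which is not the build of the counts; 1 TG window is not reported here. Alternatives were DESeq2 1.42.0, its size factors in edgeR, no filter, genes only, pooled controls, a replicate block, a test against a 1.2-fold change, and leaving out each library.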

Additional observations from a re-analysis of the deposited data

How the results depend on the processing

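The 40 log2 fold changes of members were recomputed under 13 alternatives, 490 values in all; 458 kept their direction and side of the threshold, 18 lost a call, 5 gained one and 9 changed sign, all of them uncalled. Calls of the members against the mean of both controls were 6, and 3 with the 4 control libraries pooled as 1 group (2572 genes and families called, beside 8269), where MADD (adjusted p = 0.0572), SORT1 (0.0918) and VPS4B (0.395) were not called; POLDIP3, MEF2D and FNIP1 kept their calls under all 13. Left out 1 at a time, the libraries gave 6 to 7 members called against the mean, 7 to 9 against control hairpin 1, 4 to 7 against control hairpin 2 and 6 to 8 between the controls, and 5711 to 7583 genes and families against the mean. The 4 against control hairpin 2 came without TARDBP hairpin replicate 2. Sign changes, all without 1 library, were in BRD8 against the mean (range over the libraries left out -0.138 to 0.193; -0.033 without control hairpin 1 replicate 2 and -0.067 without control hairpin 2 replicate 2) and against control hairpin 1 (-0.325 to 0.006), in STAG2 against the mean (-0.013 to 0.127; -0.005 without control hairpin 1 replicate 2), in HDAC6 against control hairpin 2 (-0.171 to 0.219; -0.063 without TARDBP hairpin replicate 2) and in VPS4B against control hairpin 2 (-0.126 to 0.214). Tested against a 1.2-fold change, SORT1 (adjusted p = 0.105) and STAG2 (0.0735) lost their calls against control hairpin 2, as did POLDIP3 between the controls (0.0566). The replicate numbers of the labels name no shared culture, and deviations of same-numbered libraries correlated at -0.228, -0.247 and 0.232; with the replicate block 7643 genes and families and 7 members were called against the mean, TNIK added (log2FC 0.31, adjusted p = 0.0371), and no other member's call changed. With 2 libraries a group, an uncalled member is not shown to be unchanged.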
